A study of Mus musculus with 8 samples.

Results

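Fatty acid metabolism was followed through 46 genes in mouse liver tumour cell lines. The genes were taken from a fixed list that covers the making of fatty acids (15 genes), their activation and binding (7), their storage as triglyceride and release from it (7) and their oxidation (17). Of the 46 genes 43 were measured, among 22180 genes with a probe set of their own, and Scd2, Acsl1 and Acsl3 are left out, since Scd2 and Acsl3 share their probe set with another gene and the annotation used lists none for Acsl1. Values come from 8 clonal lines on 1 Affymetrix array each, 4 from intrahepatic cholangiocarcinoma (ICC, which resembles bile duct epithelium) and 4 from hepatocellular carcinoma (HCC, which resembles hepatocytes). All 8 lines carry c-Myc and NrasG12V from the pCaMIN vector, come from C57BL/6 mice and were grown untreated in DMEM with 10% fetal calf serum. ICC tumours were started by focal electroporation in the living animal and HCC tumours by hydrodynamic injection into the tail vein, so type and delivery cannot be told apart. The labels give ICC9, ICC10, HCC2.1 and HCC2.4 as female and ICC2.7, ICC2.9, HCC1 and HCC4 as male. Each line is 1 clone, and the labels do not say which lines share an animal, so each p-value rests on line-to-line spread alone, which may be partly technical.

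Cells make fatty acids from citrate: ATP citrate lyase releases acetyl-CoA, acetyl-CoA carboxylase turns it into malonyl-CoA, fatty acid synthase builds the chain with NADPH, and elongases and desaturases lengthen and bend it. Activated fatty acids are joined to glycerol and stored in lipid droplets, or passed by the carnitine shuttle into mitochondria and shortened by beta-oxidation, whose electrons leave through the electron transfer flavoprotein. Malonyl-CoA blocks the shuttle, and the liver is a main organ of all these routes.

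Array medians lay between 5.02 and 5.09 log2 units, and precision is limited by there being 8 arrays. Xist, expressed from the inactive X chromosome of females, separated the labelled sexes in 8 of 8 lines. The 8 columns of values span only 7 directions: ICC9 is a weighted sum of the other lines (residual of 0.0037 log2 units, root mean square). The weight was 0.688 for ICC10 and lay between -0.236 (HCC1) and 0.196 (HCC2.1) for the others. Given type and sex, the missing direction nearly coincides with ICC9 (cosine 0.989). ICC9 thus lies close to what type and sex alone fit, and it adds little information of its own. Of 8 hepatocyte markers only Hnf4a lay above the median level of all genes (5.66) in the mean over the lines, as did 4 of 6 bile duct markers, 0 of 5 adipocyte markers, 2 of 6 macrophage markers, 0 of 5 endothelial markers and 4 of 6 fibroblast or stellate cell markers. The defining hepatocyte products, albumin among them, were thus dim in lines of both types. The samples are clonal lines and not tissue, so these marker levels are not read as shares of cell types. Among the members, Acacb, Fabp1, Fabp4, Hadhb and Ehhadh were below the median level. The other 38 of the 43 lay above it.

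Between the tumour types the differences were small in most members, and no class had a called member. Limma called 0 of the 43 measured members between the types over all genes (Benjamini-Hochberg adjusted p under 0.05), where 0.261% of all genes were called. At an unadjusted p under 0.05 there were 11 members, 3 higher and 8 lower in ICC lines, against 14.1% of all genes (7.06% higher and 7.04% lower). The 4 ICC lines and the 4 HCC lines did not overlap for 6 members, 3 higher and 3 lower in ICC lines, against 8.63% of all genes (4.19% higher and 4.44% lower). Over the 43 members 28 differences were negative and 15 positive, with a median of -0.07 log2 units, where 49.7% of all genes were negative with a median of 0.00. By class the median difference was -0.01 in synthesis (9 of 14 negative), 0.02 in activation and binding (2 of 5), -0.29 in storage (6 of 7) and -0.07 in oxidation (11 of 17). In the wider lists of these routes it was -0.10 in 18 further synthesis genes (12 negative), -0.09 in 24 further storage genes (15) and -0.05 in 23 further oxidation and ketone genes (13).

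**Figure D1:**
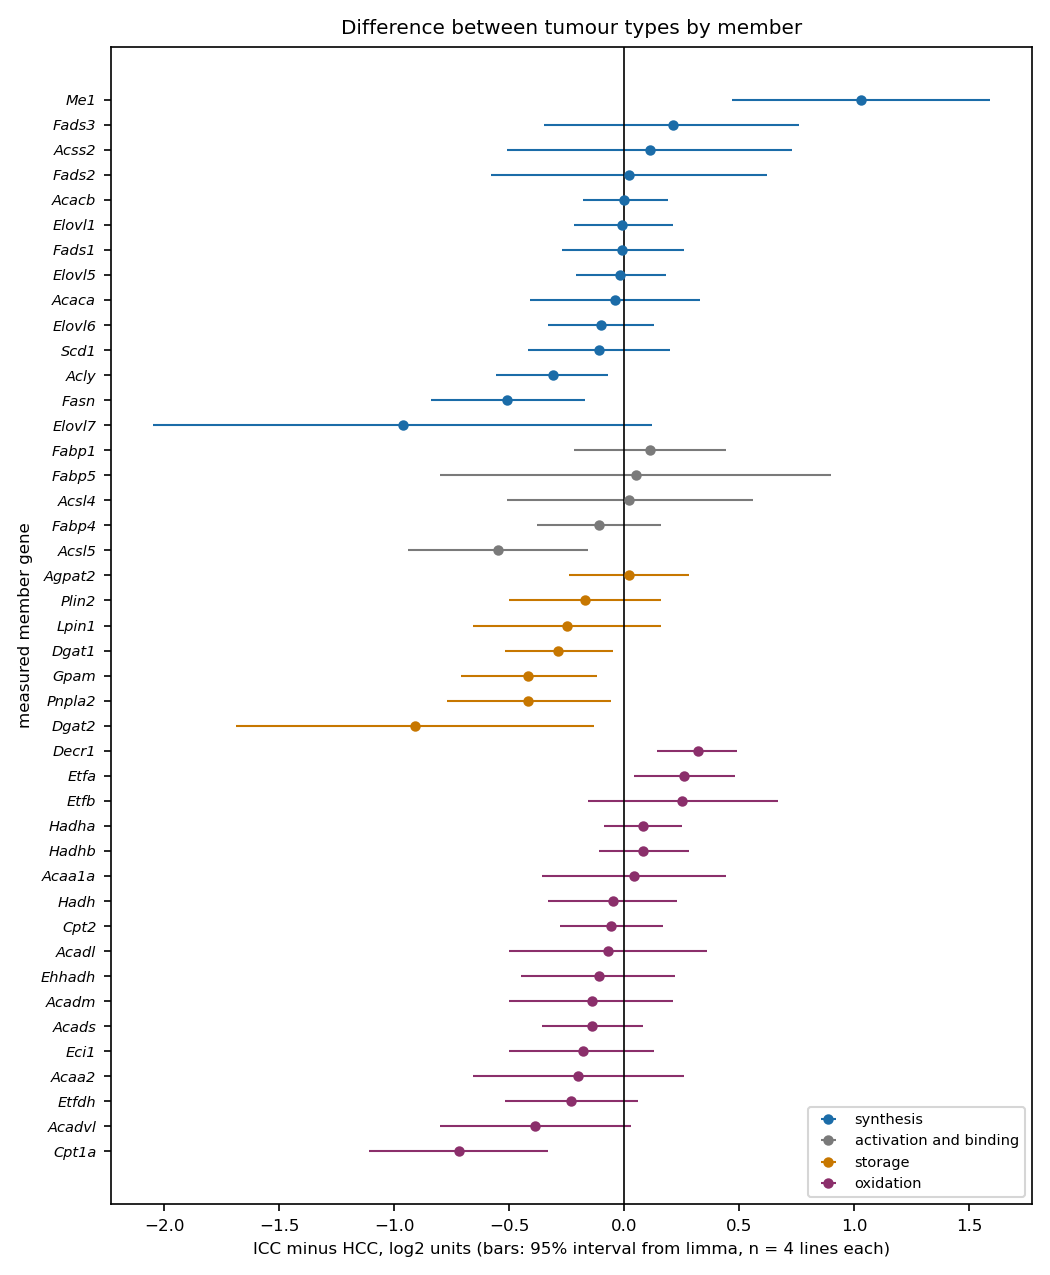
Difference between ICC and HCC lines for each of the 43 measured members, in log2 units on the horizontal axis, grouped by class on the vertical axis; points are differences of means over 4 lines each and bars are 95% intervals from limma. The largest positive value belongs to Me1 (1.03), and 6 of the 7 storage members lie below 0.

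The largest difference between types was in Me1, the cytosolic malic enzyme that supplies NADPH for fatty acid synthesis. Me1 measured 9.15 in ICC9, 9.08 in ICC10, 8.85 in ICC2.7 and 9.32 in ICC2.9, against 7.48 in HCC1, 8.76 in HCC4, 7.86 in HCC2.1 and 8.19 in HCC2.4 (log2 signal). Every ICC line lay above every HCC line, with HCC4 just under ICC2.7. The means were 9.10 ± 0.19 and 8.07 ± 0.54 (SD, n = 4 each), a 2.04-fold difference (log2 difference 1.03, SE 0.25, limma adjusted p = 0.125). The difference was 1.09 in the female and 0.96 in the male lines. Without HCC4, the HCC line nearest to the ICC lines, limma called Me1 (1.26, adjusted p = 0.0454). Over all settings the limma adjusted p ranged from 0.00591 to 0.867. The lowest came with array weights, a fit that rests on ICC9, and the highest with lines of the same type and sex averaged.

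Fasn, the synthase that builds palmitate, went the other way. It measured 10.19, 9.92, 10.31 and 10.43 in the ICC lines, ordered as for Me1, and 10.47, 10.58, 10.89 and 10.93 in HCC1, HCC4, HCC2.1 and HCC2.4. The types did not overlap, although ICC2.9 and HCC1 were nearly level. The log2 difference was -0.51 (SE 0.15, limma adjusted p = 0.188), and it was -0.86 in the female lines, where limma run on those lines alone called it, and -0.15 in the male lines. Acly, the ATP citrate lyase, differed by -0.31 (SE 0.11, limma adjusted p = 0.25) and was lowest in ICC10 (10.30) and highest in HCC4 (10.92).

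Acaca, the cytosolic acetyl-CoA carboxylase that makes malonyl-CoA for synthesis, measured 8.33, 8.04, 8.72 and 8.70 in the ICC lines, again ordered as for Me1. In the HCC lines it measured 8.29, 8.46, 8.59 and 8.62. The types overlapped widely and the difference was -0.04 (95% interval -0.41 to 0.33). Acacb, the carboxylase at the mitochondrial surface whose product restrains the carnitine shuttle, stayed between 4.61 and 4.82 in all lines.

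Scd1, the desaturase that makes oleate, measured 10.46, 10.67, 10.41 and 10.04 in the ICC lines and 10.67, 10.50, 10.39 and 10.46 in the HCC lines, in the same order. Only ICC2.9 stood apart, at the bottom, and the difference was -0.11 (95% interval -0.42 to 0.20). The elongases Elovl1, Elovl5 and Elovl6 and the delta-5 desaturase Fads1 differed between types by -0.10 to -0.01, with ranges over all 8 lines of 0.24 to 0.40 log2 units.

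Elovl7, an elongase of very long chains, shared the widest range of the members with Dgat2 (2.30 log2 units each). It measured 7.91 in ICC9 and 8.47 in ICC10 but 6.17 in ICC2.7 and 6.39 in ICC2.9, and in HCC1, HCC4, HCC2.1 and HCC2.4 it measured 7.94, 8.09, 8.33 and 8.44. The low level was thus in the male ICC lines, while the female ICC lines lay in or next to the HCC range. The difference between types was -0.96 (SE 0.48, limma adjusted p = 0.408). It was -1.74 in the male lines, where limma run on those 4 lines alone called it, and -0.19 in the female lines.

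Fads2, the delta-6 desaturase that opens the route to long polyunsaturated fatty acids, measured 9.35, 9.06, 10.17 and 9.97 in the ICC lines and 9.94, 9.15, 9.59 and 9.80 in the HCC lines. ICC2.7 and ICC2.9 were highest and ICC10 lowest, so the spread inside ICC exceeded the difference between types (0.02, 95% interval -0.58 to 0.62). Acss2, which makes acetyl-CoA from acetate, measured 6.73, 7.26, 6.30 and 6.18 in the ICC lines and 6.77, 6.96, 6.16 and 6.15 in the HCC lines. High and low pairs of lines occurred in both types, and the difference was 0.11 (95% interval -0.51 to 0.73).

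**Figure D2:**
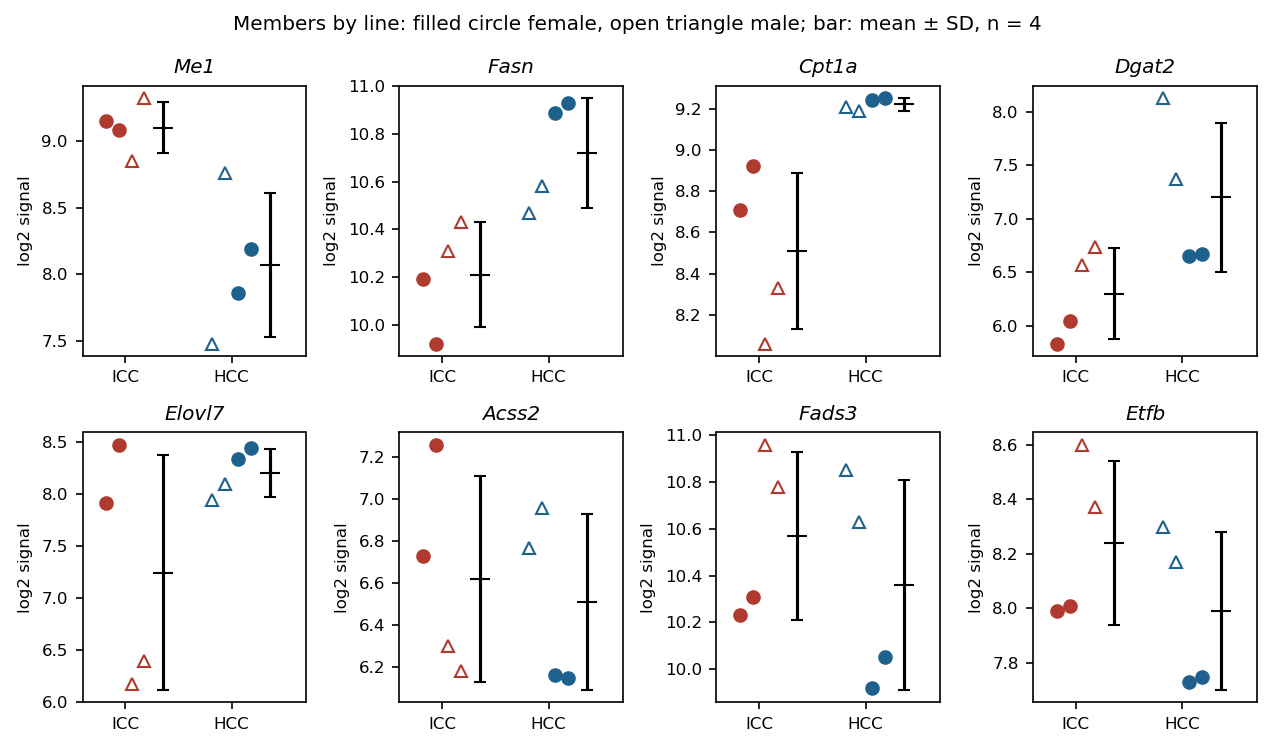
Log2 signal of 8 members in each line, with tumour type on the horizontal axis; filled circles are female and open triangles male lines, and the bar beside each group is its mean ± SD (n = 4). Me1, Fasn and Cpt1a separate the types without overlap, Fads3 and Etfb separate the sexes, and Elovl7 is low in the 2 male ICC lines only.

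Fatty acids are activated by acyl-CoA synthetases before use. Acsl5, a synthetase linked to triglyceride synthesis in the liver, measured 10.26, 10.56, 9.94 and 9.76 in the ICC lines and 10.76, 10.85, 10.50 and 10.60 in the HCC lines. It was lowest in the male ICC lines, and ICC10 reached into the HCC range. The difference was -0.55 (SE 0.17, limma adjusted p = 0.218). Acsl4, the synthetase that prefers arachidonate, differed by 0.02 between types (95% interval -0.51 to 0.56).

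Among the binding proteins, Fabp5, the epidermal fatty acid binding protein, measured 7.30, 6.75, 8.53 and 8.34 in the ICC lines and 7.87, 7.25, 7.80 and 7.80 in the HCC lines. The male ICC lines were highest and ICC10 lowest, and the difference between types was 0.05 (95% interval -0.80 to 0.90). Fabp5 has 4 probe sets: in all 4 the male ICC lines exceeded the female ones, but 1 of them gave HCC1 as the highest line and a difference between types of -0.22. Fabp1, the liver form, and Fabp4, the adipocyte form, were near the floor of the arrays, at 2.99 to 3.64 and 3.07 to 3.59 in all lines.

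Storage genes had the lowest class median. Of the 7 measured, 4 were lower in ICC at an unadjusted p under 0.05 (7.04% of all genes) and 0 were called by limma. Dgat2, which with Dgat1 adds the last fatty acid to triglyceride, measured 5.83 in ICC9, 6.04 in ICC10, 6.57 in ICC2.7 and 6.74 in ICC2.9, against 8.13 in HCC1, 7.37 in HCC4, 6.65 in HCC2.1 and 6.67 in HCC2.4. The male lines were higher than the female ones inside each type, and ICC2.9 overlapped HCC2.1 and HCC2.4. The mean was 6.30 ± 0.43 in ICC and 7.20 ± 0.70 in HCC lines (SD, n = 4 each), 1.88-fold higher in HCC (log2 difference -0.91, SE 0.35, limma adjusted p = 0.292). With sex in the model limma called it (adjusted p = 0.0436, where 1.93% of all genes were called). With sex and the direction missing from the 8 columns it was not called (0.102).

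Gpam, the mitochondrial acyltransferase that starts glycerolipid synthesis, measured 8.03, 8.20, 7.84 and 7.58 in the ICC lines and 8.32, 8.40, 8.30 and 8.29 in the HCC lines. The HCC lines lay close together and above all ICC lines (log2 difference -0.42, SE 0.13, limma adjusted p = 0.216). Dgat1 differed by -0.29 (SE 0.10) and Pnpla2, the lipase that opens lipid droplets, by -0.42 (SE 0.15), with limma adjusted p of 0.274 and 0.28. Lpin1, the phosphatidate phosphatase, differed by -0.25 and Agpat2, an acyltransferase of the same route, by 0.02.

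Plin2, the protein that coats lipid droplets, measured 11.22, 11.10, 10.98 and 11.24 in the ICC lines and 11.25, 10.91, 11.54 and 11.52 in the HCC lines. HCC4 was the lowest of all lines and the female HCC lines the highest (difference -0.17, 95% interval -0.50 to 0.16). The mean over 8 hepatocyte markers, 7 of them dim, lay between 4.67 and 4.73 in ICC and between 4.77 and 4.95 in HCC lines. This gap is no shift of the whole list, since 5 markers were lower and 3 higher in ICC lines. Limma called 0 of the 8 between types. Hnf4a differed most (-0.82) and was high only in the female HCC lines (7.26 and 7.06, against 5.32 to 5.92 elsewhere). The part of these markers in the storage values was not tested.

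Among the 17 oxidation members limma called 0 between types, and 3 had an unadjusted p under 0.05, of which Cpt1a was lower and Decr1 and Etfa were higher in ICC lines. Cpt1a, the carnitine palmitoyltransferase at the mitochondrial gate, measured 8.71 in ICC9, 8.92 in ICC10, 8.06 in ICC2.7 and 8.33 in ICC2.9, against 9.21, 9.19, 9.24 and 9.25 in HCC1, HCC4, HCC2.1 and HCC2.4. The HCC lines were nearly level, and each ICC line lay below them. The means were 8.51 ± 0.38 and 9.22 ± 0.03 (SD, n = 4 each), 1.64-fold higher in HCC (log2 difference -0.72, SE 0.17, limma adjusted p = 0.125). With sex in the model limma called it (adjusted p = 0.0442), and with sex and the missing direction it did not (0.11). Cpt2, the partner enzyme inside mitochondria, differed by -0.06.

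Decr1, the dienoyl-CoA reductase needed for unsaturated chains, was higher in ICC lines, at 7.59, 7.62, 7.67 and 7.61 against 7.42, 7.26, 7.24 and 7.30 in the HCC lines. The gap was small but the lines of each type lay close together (log2 difference 0.32, SE 0.08, limma adjusted p = 0.125). Etfa, the alpha chain of the electron transfer flavoprotein, also showed no overlap, with a difference of 0.26 (SE 0.10, limma adjusted p = 0.278). The chain-length-specific dehydrogenases Acadl, Acadm and Acads differed by -0.14 to -0.07.

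Acadvl, the dehydrogenase of the longest chains, measured 8.17, 8.46, 8.27 and 7.88 in the ICC lines and 8.77, 8.95, 8.21 and 8.40 in the HCC lines. The male HCC lines were highest and ICC2.9 lowest, with overlap between types (-0.39, SE 0.18, limma adjusted p = 0.387). Hadha, the alpha subunit of the trifunctional protein, was the steadiest member, with a range of 0.17 over the 8 lines around 10.48. Its beta subunit Hadhb ranged by 0.34 around a dim 4.95. The remaining oxidation members Hadh, Ehhadh, Acaa1a, Acaa2, Eci1, Etfb and Etfdh differed between types by -0.23 to 0.25.

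Promoter sequences are shown for the members with an unadjusted p under 0.05 and a difference of at least 0.5 log2 units between types, none of which limma called. RefSeq promoters on GRCm38.p6 were found for 37 of the 46 members and for 4 of these 5, Dgat2 having no entry. Each run gives the 250 bases before the most upstream start on the strand of the gene, and capitals mark matches to CCAAT on either strand, the box bound by nuclear factor Y, a common partner of the sterol-regulated factors. The stretches are chr19:55253119-55253368 (plus strand), chr19:3323051-3323300 (plus), chr11:120824548-120824797 (minus) and chr9:86695915-86696164 (minus).
Acsl5: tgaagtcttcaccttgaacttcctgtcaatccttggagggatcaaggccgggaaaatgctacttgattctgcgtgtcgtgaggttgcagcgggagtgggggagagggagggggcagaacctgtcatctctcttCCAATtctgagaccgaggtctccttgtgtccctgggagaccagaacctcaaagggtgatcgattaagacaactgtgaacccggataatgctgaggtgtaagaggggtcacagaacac
Cpt1a: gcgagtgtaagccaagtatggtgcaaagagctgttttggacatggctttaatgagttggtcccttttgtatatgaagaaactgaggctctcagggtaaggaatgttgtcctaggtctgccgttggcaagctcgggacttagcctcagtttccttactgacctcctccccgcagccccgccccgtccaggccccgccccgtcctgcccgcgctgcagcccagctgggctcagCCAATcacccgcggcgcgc
Fasn: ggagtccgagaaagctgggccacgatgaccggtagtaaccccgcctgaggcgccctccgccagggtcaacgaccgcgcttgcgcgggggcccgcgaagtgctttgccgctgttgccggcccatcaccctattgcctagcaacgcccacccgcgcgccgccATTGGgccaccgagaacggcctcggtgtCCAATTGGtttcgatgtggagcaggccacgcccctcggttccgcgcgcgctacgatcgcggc
Me1: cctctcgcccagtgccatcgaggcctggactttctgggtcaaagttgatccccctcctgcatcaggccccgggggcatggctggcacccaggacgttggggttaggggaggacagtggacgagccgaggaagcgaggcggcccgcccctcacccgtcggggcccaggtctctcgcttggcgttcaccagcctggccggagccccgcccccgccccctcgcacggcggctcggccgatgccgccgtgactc
Fasn held 3 CCAAT matches, the last pair overlapping, Cpt1a and Acsl5 held 1 each and Me1 held none. CCAAT occurred in 17 of the 37 member promoters (45.9%) and in 33.8% of all 32817 promoter windows of this length. On either strand, the sterol regulatory element in its strict form occurred in 0 of 37 (0.0731% of all) and its looser form TCACNCCAC in Ehhadh alone (1.05% of all). The E-box CACGTG, which MYC and the carbohydrate-response factor can bind, occurred in Elovl5 alone (6.02% of all). The antioxidant core TGACNNNGC occurred in 4 of 37, which were Acss2, Ehhadh, Fabp1 and Fads3 (10.2% of all), and the direct repeat bound by PPAR receptors in 0 (0.0335% of all). The 4 promoters printed hold none of these other motifs, which describes these letters in this window only. A match is not a bound site.

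Labelled sex was compared with tumour type in the model. Limma called 3 of the 43 members, all lower in female lines, against 2.94% of all genes (1.47% lower in female). At an unadjusted p under 0.05 there were 10, 6 higher and 4 lower in female lines, against 17.5% of all genes. Fads3, a desaturase-family gene, measured 10.23, 10.31, 9.92 and 10.05 in the female lines ICC9, ICC10, HCC2.1 and HCC2.4, and 10.96, 10.78, 10.85 and 10.63 in the male lines ICC2.7, ICC2.9, HCC1 and HCC4. The sexes did not overlap (as for 4.35% of all genes, lower in female), and male lines were 1.60-fold higher (log2 difference -0.68, SE 0.09, limma adjusted p = 0.0101). Etfb, the beta chain of the electron transfer flavoprotein, measured 7.99, 8.01, 7.73 and 7.75 in the female and 8.60, 8.37, 8.30 and 8.17 in the male lines, in the same order. These groups did not overlap either (-0.49, SE 0.08, limma adjusted p = 0.0215). Acsl4 (0.58, limma adjusted p = 0.0693) and Lpin1 (0.43, limma adjusted p = 0.0927) were higher in female lines without overlap but were not called. The dim Hadhb was lower without overlap (-0.14). The sexes did not overlap for 8.76% of all genes.

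Dgat2, with the values above, was 1.87-fold higher in male lines (-0.91, SE 0.17, limma adjusted p = 0.0336), although the male ICC and female HCC lines overlapped. With the missing direction in the model limma called Fads3 alone, and without ICC9 it called 0 of the 3, with adjusted p of 0.0634 for Fads3 and 0.129 for Dgat2 and Etfb. Without ICC2.7, HCC2.1 or HCC2.4, and with a random block for each pair of same type and sex, it also called Fads3 alone. It lost Dgat2 without ICC2.9 (0.0893) and Etfb without ICC10 (0.065), and with each such pair averaged it called none of the 3 (Fads3 0.384). The female lines had a higher mean over 6 bile duct markers (7.46 to 7.67 against 6.74 to 7.07; 5 of 6 higher, 2 called by limma). Of the 6 fibroblast or stellate cell markers 6 were lower in female lines (median difference -0.66), with list means of 5.94 to 6.19 in female and 6.14 to 7.32 in male lines, and limma called Acta2 (-0.52, adjusted p = 0.046). The part of these markers in the sex differences was not tested.

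The interaction of type and sex is the signed difference between types (ICC minus HCC) in female lines minus that in male lines, so a positive value can also be a smaller deficit in female lines, as for Acads (-0.02 in female and -0.27 in male lines). Limma called 0 of the 43 members (0% of all genes; smallest adjusted p of the members 0.113), with 18 at an unadjusted p under 0.05 against 20.1% of all genes. Unlike the type and sex differences, this coefficient is not independent of the direction missing from the columns. With that direction in the model limma called 2 members and 1.15% of all genes, and the oxidation median was 0.44. All 17 oxidation members had a positive coefficient, with a median of 0.39 log2 units, where 51.9% of all genes were positive with a median of 0.02. This count was chosen after seeing the data and has no test. It includes members close to 0, with 0.01 for Hadha and Etfb, 0.03 for Decr1 and 0.04 for Hadhb (SE 0.15 to 0.16). Of the 23 further oxidation and ketone genes 14 were positive and 9 negative, with a median of 0.05. The count was 15 with each array centred on its median, and it fell to 14 without ICC2.7 or without HCC1. In synthesis 6 of 14 coefficients were positive, in activation and binding 2 of 5 and in storage 4 of 7. The coefficient equally separates the lines named with a point (ICC2.7, ICC2.9, HCC2.1, HCC2.4) from the other 4, and these readings cannot be told apart.

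**Figure D3:**
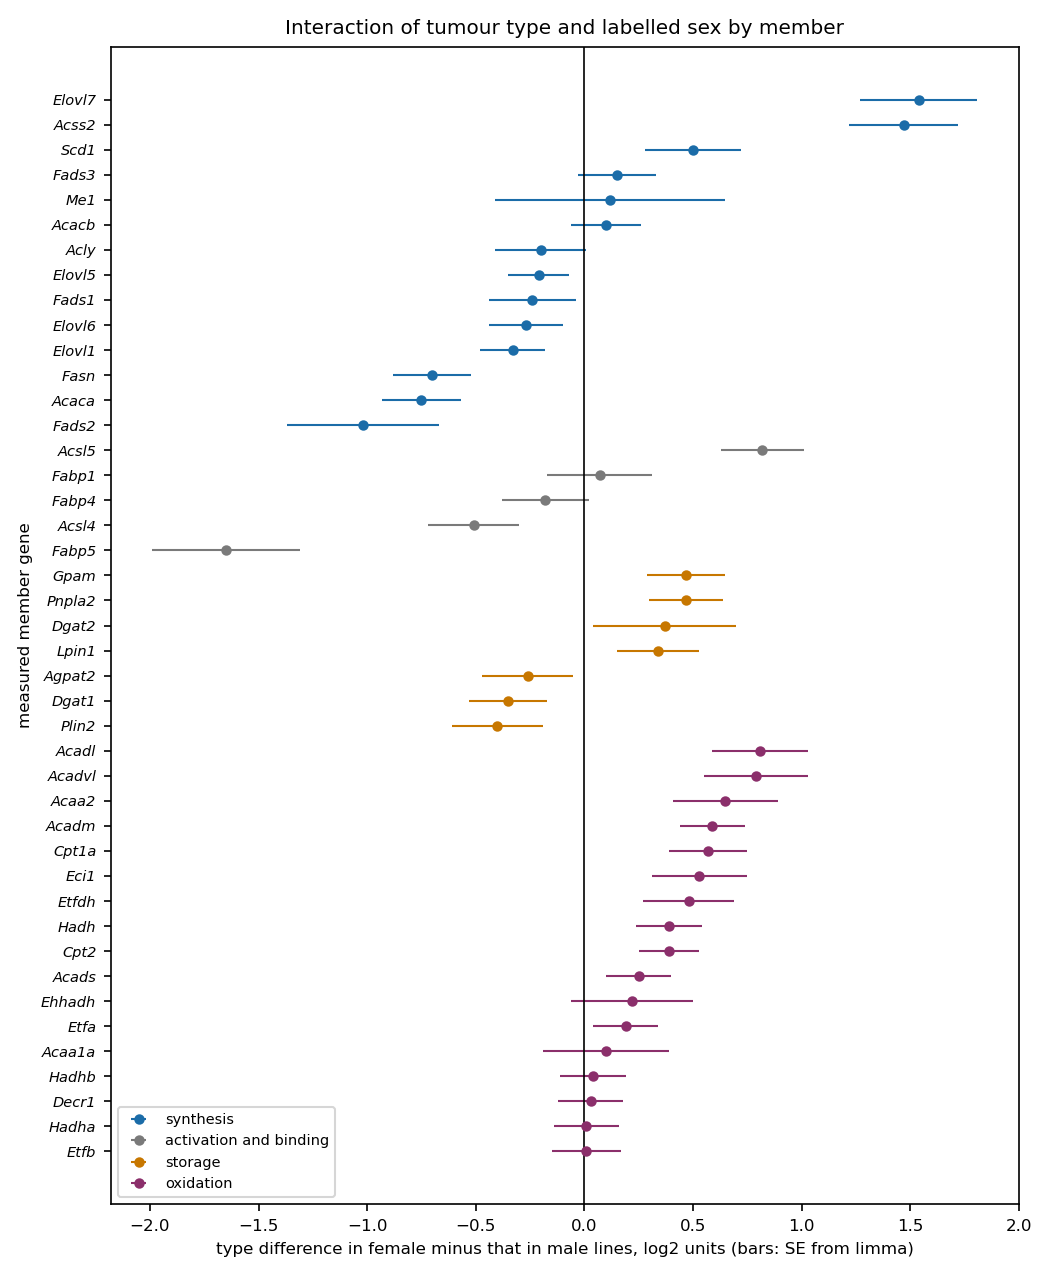
Interaction coefficient of each measured member, in log2 units on the horizontal axis, as the difference between types in female lines minus that in male lines; bars are standard errors from limma and colours mark the classes. All 17 oxidation members lie above 0 (15 with median centring), some barely, such as Hadha and Etfb (0.01 each). Synthesis members lie on both sides, from Elovl7 (1.54) to Fads2 (-1.02).

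Among the acyl-CoA dehydrogenases, which open each round of beta-oxidation, the coefficients were 0.81 for Acadl, 0.79 for Acadvl, 0.59 for Acadm and 0.25 for Acads, and outside the members 0.32 for Acad9, 0.26 for Acadsb, 0.23 for Acad11 and -0.55 for Acad12. Acadl measured 10.33 in ICC9, 10.65 in ICC10, 9.71 in ICC2.7 and 9.96 in ICC2.9, against 10.42, 10.20, 10.13 and 10.18 in HCC1, HCC4, HCC2.1 and HCC2.4. The female ICC lines were at or near the top and the male ICC lines at the bottom (SE of the coefficient 0.22, limma adjusted p = 0.125). Acadm measured 10.05, 10.27, 9.57 and 9.60 in the ICC lines, while the 4 HCC lines lay between 10.00 and 10.03 (SE of the coefficient 0.15, limma adjusted p = 0.122). Acaa2, the last thiolase of the mitochondrial spiral, had a coefficient of 0.65 and Cpt1a one of 0.57. Acadl and Acadm were described in this detail after their values were seen.

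Elsewhere, Elovl7 (1.54, SE 0.27) and Acss2 (1.47, SE 0.25) had the largest positive and Fabp5 (-1.65, SE 0.34) and Fads2 (-1.02, SE 0.35) the largest negative coefficients, with limma adjusted p of 0.113 for the first 3 and 0.181 for Fads2. With the missing direction in the model limma called Elovl7 (1.75, adjusted p = 0.022) and Acss2 (1.67, adjusted p = 0.0186), where 1.15% of all genes were called. Without ICC9 it also called both (0.0241 and 0.0231), but the female ICC arm is then ICC10 alone, assumed to vary like the other groups. Fasn and Acaca had negative coefficients (-0.70 and -0.75), opposite in sign to those of the oxidation members. The synthesis class as a whole was mixed, with 6 of 14 coefficients positive, those of Elovl7 and Acss2 among them.

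**Figure D4:**
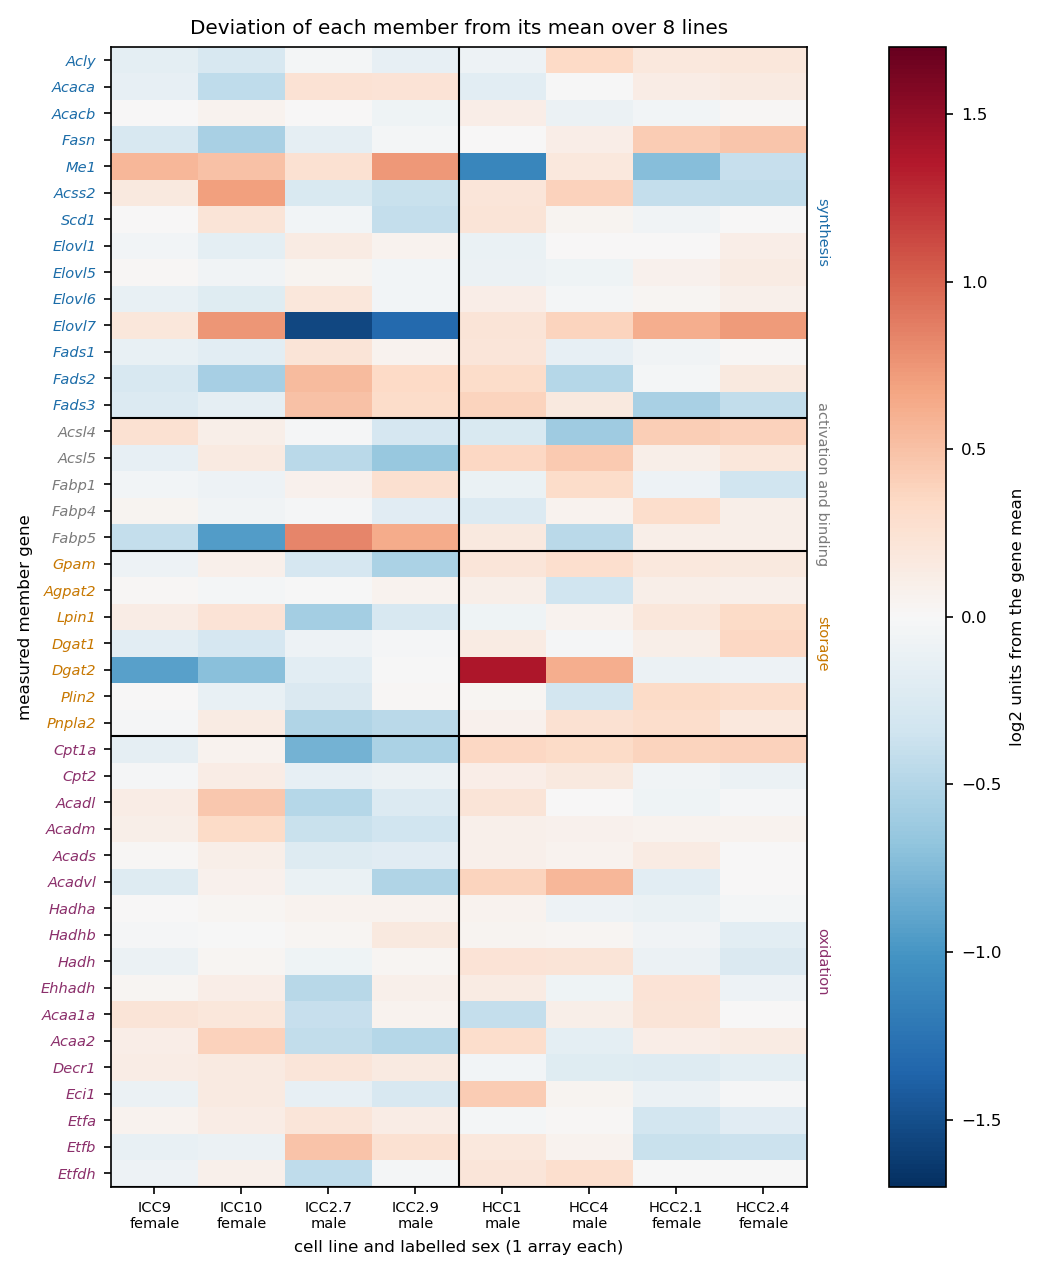
Deviation of each measured member from its own mean over the 8 lines, as colour in log2 units, with lines on the horizontal axis and members on the vertical axis grouped by class. ICC2.7 and ICC2.9 are the lowest lines for 11 members, among them Elovl7, Gpam, Cpt1a, Acadl and Acadm.

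For 11 of the 43 members the male ICC lines were the 2 lowest of the 8, against 10.4% of all genes. Of these 6 are oxidation genes (Cpt1a, Acadl, Acadm, Acads, Acaa2 and Eci1) and 3 are storage genes (Gpam, Lpin1 and Pnpla2), beside Elovl7 and Acsl5. The female ICC lines were the 2 lowest for Acly, Fasn, Elovl6, Dgat1 and Dgat2 (6.25% of all genes), and the female HCC lines for Acss2, Fads3, Hadhb, Hadh, Etfa and Etfb (7.47% of all genes). In ICC2.7 and ICC2.9 the mean over 6 fibroblast or stellate cell markers was also highest (7.32 and 6.89, against 5.94 to 6.50 in the other lines), and that over 6 macrophage markers lowest (5.36 and 5.23, against 5.86 to 6.19). Col1a1, Pdgfrb and Acta2 were highest there, but Des was low (5.17 and 4.97, against 6.86 in HCC1) and Col1a2 was as high in HCC4 (6.78). Of the macrophage markers Cd68 and Cd14 were lowest there, while Csf1r was not low in ICC2.7 (5.51) and the others were dim. The part of these markers in the pattern was not tested.

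Classes were then set side by side within each line. Since levels of different probe sets cannot be compared, each gene was expressed as its deviation from its mean over the lines, and the median over the class was taken. In ICC10 synthesis stood at -0.16 and oxidation at 0.12. In ICC2.7 the order was the reverse, with synthesis at 0.09, oxidation at -0.14 and storage at -0.24. Synthesis minus oxidation was -0.28 in ICC10 and 0.24 in ICC2.7 with medians, and -0.16 and 0.19 with means. In ICC9 synthesis stood at -0.09 and oxidation at 0.01, and in ICC2.9 both were near the mean (-0.04 and -0.03).

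In the HCC lines, synthesis and oxidation stood at 0.11 and 0.14 in HCC1, 0.03 and 0.05 in HCC4, -0.01 and -0.07 in HCC2.1, and 0.10 and -0.02 in HCC2.4. Storage was above the mean in all 4 HCC lines (0.11, 0.06, 0.18 and 0.19) and below it in all 4 ICC lines (-0.02, -0.03, -0.24 and -0.03). The difference between types was -0.21 for storage, -0.11 for synthesis and -0.04 for oxidation. With the mean over members in place of the median these were -0.35, -0.05 and -0.07. No test was run on these class values.

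**Figure D5:**
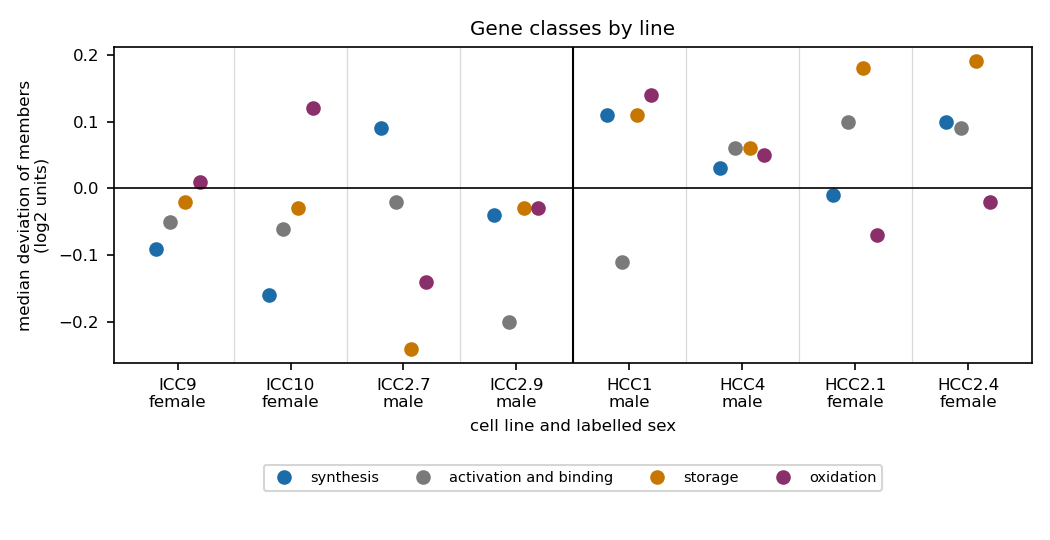
Median deviation of the members of each class from their gene means, in log2 units on the vertical axis, for each line on the horizontal axis; each point is 1 class in 1 line. Storage lies below 0 in the 4 ICC lines and above 0 in the 4 HCC lines, while synthesis and oxidation cross over between ICC10 and ICC2.7.

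Other genes of these routes were taken from wider lists. Limma called between types 0 of 17 regulators (2 at an unadjusted p under 0.05), 0 of 18 further synthesis genes (6), 0 of 24 further storage genes (5), 0 of 11 uptake genes (3) and 0 of 23 further oxidation and ketone genes (4). Of all genes 0.261% were called and 14.1% had an unadjusted p under 0.05. Srebf1, the master factor of fatty acid synthesis, measured 8.57 ± 0.10 in ICC and 8.33 ± 0.18 in HCC lines (SD, n = 4 each), and Srebf2, its sterol counterpart, 9.91 ± 0.10 and 9.99 ± 0.30. Pparg, a receptor that drives lipid storage, measured 8.47 ± 0.35 and 9.12 ± 0.48 (log2 difference -0.66, SE 0.25, limma adjusted p = 0.298). Ppargc1a, a coactivator of oxidation genes, measured 6.23 ± 0.75 and 7.96 ± 0.19 without overlap (-1.73, SE 0.33, limma adjusted p = 0.0769, and 0.0203 with sex in the model). With sex in the model limma also called Lpin2 (-0.91, adjusted p = 0.00826), Acsl6 (-1.06, adjusted p = 0.0189) and the dim Lpl (1.08, adjusted p = 0.019). In that model 1.93% of all genes were called. Mlxipl and Ppara, regulators of synthesis and oxidation in hepatocytes, were below the median level in all lines. Between the sexes limma called 1 of the 18 synthesis, 1 of the 24 storage and 1 of the 23 oxidation and ketone genes. It called 0 of the 17 regulators and 0 of the 11 uptake genes, against 2.94% of all genes. Lpin2 (0.55, adjusted p = 0.0227) and Acox2 (0.80, adjusted p = 0.0301) were higher and Elovl4 (-1.37, adjusted p = 0.0281) lower in female lines.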

How the data were processed

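RNA (100 ng) from 8 untreated clonal mouse tumour lines was measured on Affymetrix arrays, with 1 array for each line. The deposited values are log2 signals on 39993 probe sets that the authors normalised by RMA with the oligo package, per the submitters' processing notes; no source used here gives versions or further steps. Of the probe sets 23521 name exactly 1 gene in the platform annotation, 1814 name several and 14658 none. For the 1082 genes with several probe sets the one with the highest mean over the 8 lines was kept, which left 22180 genes. RMA makes levels of one probe set comparable between arrays but not levels of different probe sets, and it compresses differences of dim ones.

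Linear models were fitted with limma 3.58.1 (R 4.3.3), with eBayes moderation, over all 22180 genes with Benjamini-Hochberg adjustment and a threshold of 0.05. The tests were ICC minus HCC, female minus male with type in the model, and their interaction. Type was fitted without covariates, with 6 nominal residual degrees of freedom. The direction missing from the columns lies in the residual of the type and the sex models and adds almost no spread there. Standard errors and p-values of these tests may therefore be too small. With the missing direction in the model limma called 12 genes instead of 58 between types and 280 instead of 653 between sexes. The type test alone was tried on simulated data. The simulated lines were independent and spanned all directions, unlike the deposited columns, so the trial does not cover that limit. Members and gene lists were chosen with earlier results of these data known. Values in every line are given for members called in any test, for those with an unadjusted p under 0.05 and a difference of at least 0.5 between types, for those whose types do not overlap and differ by at least 0.3, for the 10 with the widest range, and for pathway landmarks. The alternatives were 22 for type, 17 for sex and 15 for the interaction. Promoters are RefSeq, GRCm38.p6.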

Additional observations from a re-analysis of the deposited data

Results flagged for a closer look

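Dixon's test, run on the 4 lines of each type for each measured member, marked 3 of 86 groups, and chance marks about 5% of groups. HCC4 was lowest of the HCC lines for Fabp5, the epidermal fatty acid binding protein, at 7.25 log2 units against 7.80 to 7.87 in the other HCC lines. HCC4 was also lowest for Agpat2, the acyltransferase of glycerolipid synthesis, at 8.09 against 8.52 to 8.54. ICC2.7 was lowest of the ICC lines for Ehhadh, the bifunctional enzyme of peroxisomal oxidation, at 3.94 against 4.45 to 4.53, a dim level in all lines.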

How the results depend on the processing

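No member with an unadjusted p under 0.05 changed direction (0 of 242 values between types, 0 of 169 between sexes, 0 of 270 for the interaction). In this balanced design some settings, such as averaged pairs or a random block, leave the differences between types and sexes unchanged by construction. The members were also picked by p-value in these same lines, so the count is no independent check of direction. Calls did move. Between types limma called 0 members, but 7 with array weights (Acly, Cpt1a, Decr1, Dgat1, Dgat2, Fasn, Me1; 10.3% of all genes), 2 with sex in the model (1.93%), 3 in the female lines alone (3.14%), 1 in the male lines alone (0.902%) and 0 to 1 when 1 line was left out (1 without HCC4; 0.41%). Array weights gave ICC9 71.6 and the other lines 0.347 to 0.981, so that fit rests on ICC9. Between sexes limma called 3 members, but 6 with array weights (9.18%), 1 with a random block for lines of one type and sex (1.51%), 0 with such lines averaged (0.0271%), 1 with the missing direction (1.26%) and 0 to 3 when 1 line was left out. For the interaction it called 0, but 2 with the missing direction (1.15%) and 0 to 2 when 1 line was left out. The count of oxidation members with a positive coefficient was 14 to 17 when 1 line was left out. The difference in the storage class was -0.21 with medians and -0.35 with means. Between types 0% to 10.3% of all genes were called over these settings. Other scalings moved the median of all genes by 0.004 and -0.005. No paired analysis was possible because the line names share no replicate numbers between the types. Lines of both types share the name form with a point, whose meaning the labels do not give, and with it in the model limma called 0 members and 0.582% of all genes (Fasn adjusted p = 0.059). Signal over background limits the 5 dim members.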
